A study of Mus musculus with 3 samples.

Results

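The cells described here are urothelial cells of mouse bladder assembloids, the epithelial cells that line the bladder, with a high summed level of Ndufa4l2, Fxyd4 and Egln3. They were chosen from 2 of the 3 single-cell libraries of the series. A mouse cell counted as urothelial when Krt5, Krt7, Krt15, Ly6d and Wfdc2 together reached 20 UMIs (unique molecular identifiers, 1 per captured RNA molecule) per 10000 mouse UMIs. Cells with Upk3a under 10 per 10000 were then kept, and those with Ndufa4l2, Fxyd4 and Egln3 together at 12 or more per 10000 are called high cells. The urothelial cells of the same library with Upk3a under 10 and the sum under 12 are called low cells. There were 701 high cells at 1 day and 301 at 7 days, 1002 of the 16912 kept mouse cells of the assembloids and of 23925 in the whole series. The low cells numbered 807 at 1 day and 410 at 7 days. None of the 2910 urothelial cells of adult bladder met the rule, which allows a share of up to 0.103%.

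The 1-day library came from a pool of 3 assembloids sampled 1 day after reconstitution, and the 7-day library from another pool of 3 at 7 days. Strain, genotype and starting cells of the assembloids are not given in the labels. The adult library came from a pool of 8 bladders of wild-type C57BL/6 mice aged 8 to 9 weeks. Each group had 1 library, made with the 10x Genomics 3′ chemistry, version 3, so no difference between groups or cell sets has a replicate check and no test was run. Intervals below are exact 95% intervals that cover counting error only.

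Cells sense oxygen through hypoxia-inducible factors (HIF). In oxygen, the prolyl hydroxylases made by Egln1, Egln2 and Egln3 mark HIF-alpha proteins, and the Vhl protein then leads them to breakdown. When oxygen is short, HIF persists, pairs with Arnt and turns on genes for glycolysis, lactate export, pH control and mitophagy, several of which, Egln3 and Egln1 among them, damp the response again. Ndufa4l2 is a HIF target whose product resembles the respiratory chain subunit made by Ndufa4. Fxyd4 encodes a small regulator of the sodium pump best known from kidney collecting duct, and Ghrh encodes growth hormone releasing hormone, best known from the hypothalamus. Oxygen and HIF protein were not measured in these libraries, so the word hypoxic is used here only as the name given to this set of genes.

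The genes that chose the cells lie at 10:127514967-127517154 on the plus strand (Ndufa4l2), at 6:117933559-117937692 on the minus strand (Fxyd4) and at 12:54178981-54203860 on the minus strand (Egln3), all protein-coding in GENCODE vM21 on mm10. Ghrh, which was not part of the rule, is protein-coding at 2:157329497-157347506 on the minus strand. The 250 bases before RefSeq start sites on GRCm38.p6, the assembly of mm10, are printed for Egln3, Fxyd4 and Ghrh, the genes that mark the cells, and for Ero1l and Bnip3, which stood with them in the same cells. Of these marker genes Ndufa4l2 is named only. The stretches are shown because HIF binds the letters ACGTG and GCGTG, which are in capitals on either strand. The search also meets the E-box CACGTG, which other factors bind.
Egln3 at chr12:54203875-54204124, minus strand: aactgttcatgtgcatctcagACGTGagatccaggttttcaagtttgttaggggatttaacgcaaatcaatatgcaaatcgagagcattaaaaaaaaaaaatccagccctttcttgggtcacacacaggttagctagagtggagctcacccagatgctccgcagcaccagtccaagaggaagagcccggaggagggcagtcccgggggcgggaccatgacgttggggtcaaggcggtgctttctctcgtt
Fxyd4 at chr6:117937336-117937585, minus strand: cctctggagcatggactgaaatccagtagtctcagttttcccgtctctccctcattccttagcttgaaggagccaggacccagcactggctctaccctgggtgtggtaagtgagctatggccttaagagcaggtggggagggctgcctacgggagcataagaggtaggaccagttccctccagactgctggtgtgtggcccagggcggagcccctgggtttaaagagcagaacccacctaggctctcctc
Ghrh, first entry, at chr2:157346656-157346905, minus strand: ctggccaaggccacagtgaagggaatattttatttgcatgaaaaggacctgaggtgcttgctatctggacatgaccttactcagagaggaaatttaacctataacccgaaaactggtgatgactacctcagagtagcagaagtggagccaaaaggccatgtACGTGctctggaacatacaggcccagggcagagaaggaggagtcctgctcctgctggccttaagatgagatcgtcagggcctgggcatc
Ghrh, second entry, at chr2:157337427-157337676, minus strand: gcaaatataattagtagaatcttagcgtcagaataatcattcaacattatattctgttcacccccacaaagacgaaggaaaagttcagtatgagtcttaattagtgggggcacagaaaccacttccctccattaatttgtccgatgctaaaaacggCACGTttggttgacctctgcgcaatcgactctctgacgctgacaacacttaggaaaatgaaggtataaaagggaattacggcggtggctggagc
Ero1l (Ero1a in RefSeq) at chr14:45318573-45318822, minus strand: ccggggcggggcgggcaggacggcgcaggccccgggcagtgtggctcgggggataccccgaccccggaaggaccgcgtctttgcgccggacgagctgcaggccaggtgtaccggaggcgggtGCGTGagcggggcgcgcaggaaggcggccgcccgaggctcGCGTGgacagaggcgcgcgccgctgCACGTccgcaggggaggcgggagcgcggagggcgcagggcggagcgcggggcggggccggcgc
Bnip3 at chr7:138909507-138909756, minus strand: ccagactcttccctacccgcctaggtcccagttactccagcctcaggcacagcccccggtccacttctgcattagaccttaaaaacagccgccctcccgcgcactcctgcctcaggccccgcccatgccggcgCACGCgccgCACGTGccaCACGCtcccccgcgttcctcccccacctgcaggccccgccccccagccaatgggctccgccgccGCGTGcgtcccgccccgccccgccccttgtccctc
The stretch of Fxyd4 held 0 matches. That of Egln3 held 1, beginning 229 bases before the start site. Those of Ghrh held 1 each, beginning 89 and 94 bases before their starts. The stretch of Ero1l held 3 and that of Bnip3 held 4, an overlapping pair of matches at CACGTG being counted once. Of all 32851 RefSeq promoters, 38.6% held at least 1 match in the same length. The shares that follow count genes instead, a gene holding a match when any of its promoters did, so they are not the same measure. Among 4789 of the 5945 genes measured in the 1-day comparison that have an entry, the share was 66.1%. Of the 41 measured genes of the glycolysis list and the list of other HIF target genes, 37 had an entry and 31 of these held a match (83.8%). Of the 113 genes that were higher in high cells at 1 day, 79 had an entry and 47 of these held a match (59.5%). With cells rich in stromal RNA left out it was 38 of 54 (70.4%) for the higher genes and 19 of 41 (46.3%) for the lower ones, so the higher genes lay on either side of the share of all measured genes. A match describes the letters only.

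The high cells were 46.5% of the 1508 urothelial cells with little Upk3a at 1 day (95% Clopper-Pearson interval 43.9% to 49.0%) and 42.3% of 711 at 7 days (38.7% to 46.1%). As a share of all urothelial cells they were 44.9% of 1562 at 1 day and 13.1% of 2296 at 7 days. The share of urothelial cells with Upk3a under 10, a limit of the rule itself, was 96.5% at 1 day, 31.0% at 7 days and 4.23% in bladder.

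The rule cuts a continuous range rather than a gap. The sum had a median of 24.2 per 10000 in high cells at 1 day and reached 102, and at 7 days its median was 23.3 and its highest value 137. Just inside the limit, 74 cells at 1 day and 39 at 7 days lay between 12 and 14 per 10000, and just outside it 58 and 28 lay between 10 and 12. The 1-day cells just inside held a median of 6 UMIs of the 3 genes and those just outside 5. At 7 days the medians were 10 inside and 8 outside. All 3 genes had a UMI in 489 high cells at 1 day (69.8%) and in 245 at 7 days (81.4%).

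**Figure D1:**
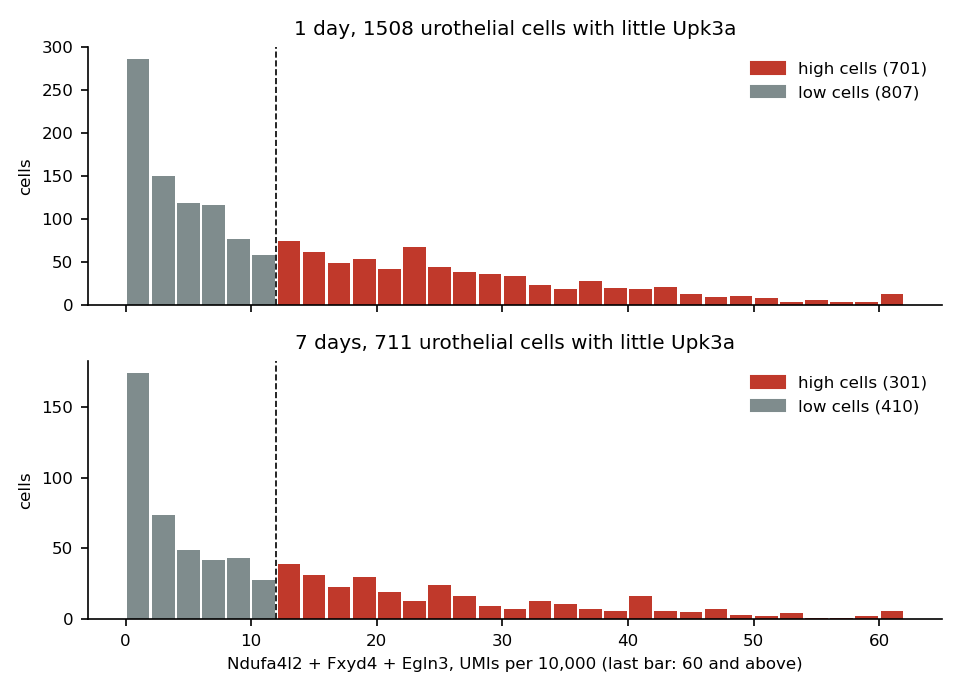
Number of urothelial cells with Upk3a under 10 per 10000 (y axis) by the summed level of Ndufa4l2, Fxyd4 and Egln3 in UMIs per 10000 (x axis, bars of width 2, the last one open), at 1 day and 7 days. Red bars are the 701 and 301 high cells, grey bars the 807 and 410 low cells, and the dashed line the limit of 12, at which no gap is seen.

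The label urothelial was checked against 12 urothelial markers that the rule did not use, keratins, uroplakins and epithelial genes. Their summed level was 7878 CPM (UMIs scaled to a fixed total for each cell set) in high cells at 1 day and 7675 at 7 days. It was 5067 in 1-day low cells, 5050 in 7-day low cells and 13422 in bladder urothelium, against 85.1 and 76.2 in the other kept cells of the 1-day and 7-day libraries. Ndufa4l2 is also known from pericytes, and the pericyte list of 9 genes summed to 25.8 CPM in high cells at 1 day and 20.2 at 7 days, with Rgs4, Abcc9 and Vtn at 0 UMIs in both. In the other cells that list stood at 208 and 250 CPM. Of the collecting duct list, 6 of 8 genes were at 0 UMIs in high cells of both libraries, Aqp2 and Avpr2 among them, and its sum was 7.8 and 7.0 CPM. The neuroendocrine list of 7 genes summed to 1.1 CPM at 1 day and 0.9 at 7 days, with Chga and Chgb at 0. Of the prostate list 7 of 8 genes were at 0, and the lymphocyte list summed to 0.3 CPM at 1 day and 0 at 7 days. The mesothelial list summed to 244 and 253 CPM, with Wt1, Lrrn4 and Muc16 at 0 and Upk3b, which urothelium also uses, giving nearly all of it. The endothelial list summed to 12.5 and 22.9 CPM, the myeloid one to 29.9 and 33.4, and the glial one to 4.4 and 2.2.

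Stromal RNA differed between the cell sets that are compared. Fibroblast markers, 8 genes, summed to 320 CPM in high cells and 2225 in low cells at 1 day, and to 338 and 3304 at 7 days. Smooth muscle markers, 7 genes, summed to 801 CPM in high cells and 4334 in low cells at 1 day, and to 224 and 3534 at 7 days. Cells with 30 or more UMIs of these 15 genes per 10000 were 21 of the high cells (3.00%) and 112 of the low cells (13.9%) at 1 day, and 9 of the high cells (2.99%) and 63 of the low cells (15.4%) at 7 days. Those low cells held 31.5% of the UMIs of their set at 1 day and 34.3% at 7 days. Scrublet, a doublet caller, called 4 high cells and 86 low cells at 1 day, and 7 and 41 at 7 days. Counts and lists against low cells are therefore given also with such cells left out of both sets, an alternative chosen after seeing the data and called the stromal limit. The whole urothelium list of 18 genes, rule genes included, summed to 25253 CPM in high cells and 20383.5 in low cells at 1 day. At 7 days it summed to 24547 and 19434. Under the stromal limit the low cells were slightly above, with 25611.5 in high and 26711 in low cells at 1 day, and 24717 and 25626 at 7 days.

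The libraries held between 93560608 and 135955678 UMIs. The median depth per cell was 4543 UMIs in high cells and 5251 in low cells at 1 day, 6774 and 7828 at 7 days, and 21224.5 in bladder urothelium. The 1-day and 7-day libraries shared 114 barcodes, 23 of them kept in both, and bladder shared 21 with the 1-day and 30 with the 7-day library. Of the high cells, 2 at 1 day and 0 at 7 days had a barcode shared with a kept cell of another library.

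The values that chose the cells are given as a description. Ndufa4l2 stood at 1085 CPM in high cells at 1 day and 1074 at 7 days, against 111 and 94.5 in low cells and 2.61 in bladder urothelium. Fxyd4 was at 1091 and 971 CPM in high cells, against 154 and 126 in low cells and 14.1 in bladder. Egln3 was at 473 and 464 CPM in high cells, against 125 and 119 in low cells and 14.4 in bladder. For each of these genes the high cells of both libraries lay above every other set, and the low cells lay above bladder. In single high cells at 1 day, Ndufa4l2 had a median of 10.2 per 10000 and a highest value of 59.2, with 74 cells at 0. Fxyd4 had a median of 9.83 and a highest value of 47.9, with 44 cells at 0. At 7 days 15 cells had no UMI of Ndufa4l2 and 22 none of Fxyd4.

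Genes were compared on summed UMIs of a set, as log2 ratios with 0.5 counts added. A gene counted as higher or lower when it was at least 2-fold apart, its counting interval excluded no difference and it reached 20 CPM in the higher set. At 1 day 113 of 5945 measured genes were higher in high cells than in low cells, 1.9% of those measured, and 385 were lower (6.48%). At 7 days 150 of 6034 were higher (2.49%) and 474 lower (7.86%). Under the stromal limit 73 of 5704 were higher (1.28%) and 50 lower (0.877%) at 1 day, and 90 of 5674 higher (1.59%) and 58 lower (1.02%) at 7 days. The median log2 ratio over all measured genes was -0.03 at 1 day and 0.00 at 7 days. Of the genes higher at 1 day, 83 were also higher at 7 days, 73.5% of the 1-day and 55.3% of the 7-day list. Since the same cells and contrast chose the high cells, nothing is read from these counts. The counts within gene lists below stand beside these shares over all measured genes.

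**Figure D2:**
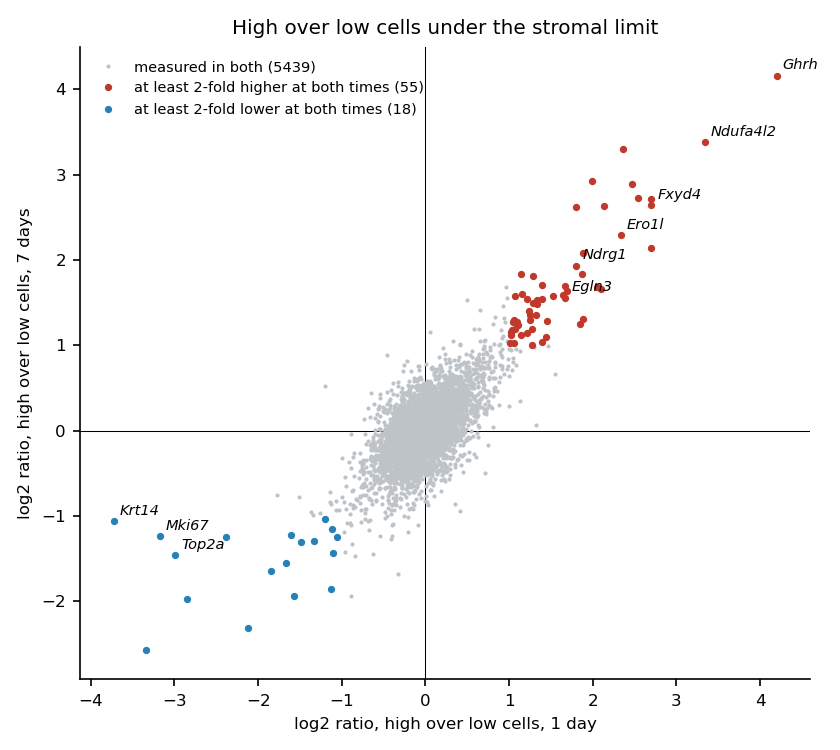
Log2 ratio of high over low cells at 1 day (x axis) and at 7 days (y axis) for 5439 genes measured in both libraries under the stromal limit, 1 point per gene. Red points are the 55 genes at least 2-fold higher at both times, with Ghrh farthest out, and blue points the 18 at least 2-fold lower at both, Krt14, Mki67 and Top2a among them.

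Ghrh, outside the rule, had the largest log2 ratio among genes of 50 CPM or more at 1 day. It stood at 335 CPM in high cells at 1 day and 363 at 7 days, against 24.7 and 19.8 in low cells, and at 0 UMIs in bladder urothelium. Both high sets lay far above both low sets. The log2 ratio of high over low cells was 3.76 at 1 day (3.51 to 4.02) and 4.18 at 7 days (3.87 to 4.53), and under the stromal limit 4.20 and 4.16. Against a floor of 3 UMIs over all bladder urothelial cells, the high cells were at least 7630-fold higher at 1 day and at least 8255-fold at 7 days. Its UMIs were not spread evenly: 297 high cells at 1 day (42.4%) and 148 at 7 days (49.2%) held any, with up to 33 in 1 cell at 1 day and 93 at 7 days. With every cell thinned to 5000 UMIs, which left out 417 high cells at 1 day and 51 at 7 days, 47.5% of high cells at 1 day (41.6% to 53.5%) and 42.4% at 7 days (36.2% to 48.8%) held a UMI. Low cells gave 5.66% and 3.53%, and other cells, which should lack the gene, 0.202% and 0.163% (6.82%, 6.59%, 0.631% and 0.280% without thinning), at a median depth before thinning of 17536.5 and 11742.5 UMIs. Bladder urothelium gave 0 of 2776 cells with a UMI at this depth, where a floor of 3 cells would be 0.108%. Of 11 neuropeptide and secretin family genes, Ghrh and Adm2, a relative of adrenomedullin, were the only measured ones at 1 day. Adm2 was at 20.8 CPM in high cells and 7.3 in low cells at 1 day, and at 15.8 and 8.3 at 7 days.

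**Figure D3:**
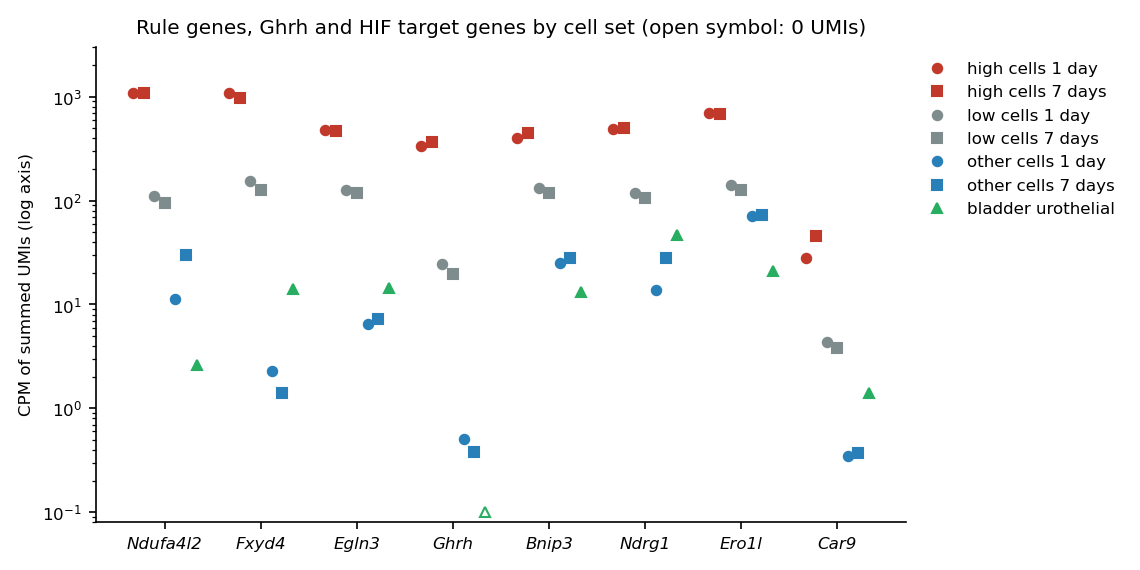
CPM of summed UMIs on a log axis for the 3 rule genes, Ghrh and 4 HIF target genes, in high cells, low cells, all other kept cells of the assembloids and bladder urothelium, 1 point per library. Red points, the high cells, lie above all other sets for each of these genes, and the open symbol marks Ghrh in bladder, with 0 UMIs.

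Among the measured genes of the HIF pathway itself, Egln1 was the only one outside the rule that was higher at either time. Of the 12 genes on that list 6 were measured at 1 day, and Egln1 and Egln3 were higher, with Egln3 part of the rule. Egln1 was at 325 CPM in high cells at 1 day and 333 at 7 days, against 125 and 110 in low cells and 27.1 in bladder. Its log2 ratio over low cells was 1.38 at 1 day (1.24 to 1.51) and 1.59 at 7 days, and 1.28 and 1.49 under the stromal limit. Hif1a, the gene for the HIF-1 alpha subunit, was at 157 and 183 CPM in high cells, against 201 and 218 in low cells and 120 in bladder, so the high cells lay slightly below the low cells. Egln2 was at 57.4 and 53.2 CPM in high cells and 64.3 and 50.5 in low cells. Arnt, the partner subunit, was at 20.8 and 18.0 CPM in high cells, against 21.8 and 23.0 in low cells. Epas1, which encodes HIF-2 alpha, was at 17.7 and 20.2 CPM in high cells and 18.6 and 22.3 in low cells. Hif3a and Arnt2 were near 0 throughout, with at most 1.4 CPM.

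Genes listed as other HIF targets mostly had ratios above 0, 23 of 25 at 1 day and 22 of 25 at 7 days. At 1 day 11 of 25 measured genes were higher and 1, Plod2, was lower, with a median log2 ratio of 0.97 beside -0.03 over all genes. At 7 days 12 of 25 were higher and 1 lower, with a median of 0.95. With the stromal limit 11 of 24 were higher and 0 lower at 1 day, and 12 of 24 and 0 at 7 days. Ero1l, an oxidase that forms disulfide bonds in the endoplasmic reticulum, was at 697 and 679 CPM in high cells, against 140 and 125 in low cells and 21.2 in bladder. Its log2 ratio was 2.31 at 1 day (2.20 to 2.43) and 2.44 at 7 days. Ndrg1, a stress-responsive gene of differentiating epithelia, was at 493 and 503 CPM in high cells, against 117 and 106 in low cells, a log2 ratio of 2.07 and 2.25. For both genes the high sets exceeded the low sets in each library.

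Car9, a membrane carbonic anhydrase that controls pH, was at 28.3 and 45.3 CPM in high cells, against 4.4 and 3.8 in low cells. Its log2 ratio was 2.66 at 1 day (2.05 to 3.36) and 3.53 at 7 days. Bnip3, which acts in the removal of mitochondria, was at 400.3 and 446 CPM in high cells, against 131 and 117 in low cells and 13.3 in bladder. Vegfa, which makes the vessel growth factor, was at 202 and 229 CPM in high cells, against 91.2 and 100.3 in low cells, and passed the rule without the stromal limit at 1 day but not with it, at 0.97. Slc16a3, a lactate exporter, was at 138 and 138 CPM in high cells, against 65.3 and 53.7 in low cells and 1.71 in bladder. Plod2, a collagen lysyl hydroxylase, went the other way, with 2.8 and 2.6 CPM in high cells against 34.2 and 28.4 in low cells and 127 and 107 in the other cells. Under the stromal limit its log2 ratio was -0.73 and -0.88 and it passed the rule at neither time.

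All measured glycolysis genes lay on the same side of 0. At 1 day 3 of 16 were higher, 0 lower and all 16 above 0, with a median of 0.79. At 7 days 8 of 17 were higher, all 17 above 0, with a median of 0.98. With the stromal limit the medians were 0.70 and 0.82. Pgk1, phosphoglycerate kinase, was at 1412 CPM in high cells at 1 day and 1445 at 7 days, against 656 and 569 in low cells and 76.8 in bladder, a log2 ratio of 1.11 and 1.34. Pfkp, the platelet form of phosphofructokinase, was at 153 and 132 CPM in high cells, against 54.0 and 49.6 in low cells. Aldoc, an aldolase, was at 39.9 and 45.8 CPM in high cells, against 15.6 and 12.6 in low cells. Gpi1, the isomerase, was at 867 and 885 CPM in high cells, against 441 and 417 in low cells, and passed the rule at 7 days. Reads of enzymes with many processed copies, such as Gapdh, may be shared with those copies.

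Nuclear genes of the respiratory chain did not share this pattern. Of 18 measured genes 0 were higher and 0 lower at either time. Over all measured genes 1.9% were higher and 6.48% lower at 1 day, and 2.49% and 7.86% at 7 days. Counts of 0 in so short a list are near these shares, and nothing is read from them. The medians of the list were -0.18 and -0.06, and -0.07 and 0.04 under the stromal limit. Ndufa4, the relative of Ndufa4l2 with which it may share reads, was at 211 and 195 CPM in high cells, against 339 and 356 in low cells and 430 in bladder. Its log2 ratio was -0.69 and -0.87, and -0.23 and -0.17 under the stromal limit. Atp5g1, a subunit of the ATP synthase ring, was at 269 and 270 CPM in high cells and 377 and 364 in low cells. Sdha, a subunit of complex II, was at 132 and 125 CPM in high cells and 105 and 94.5 in low cells.

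**Figure D4:**
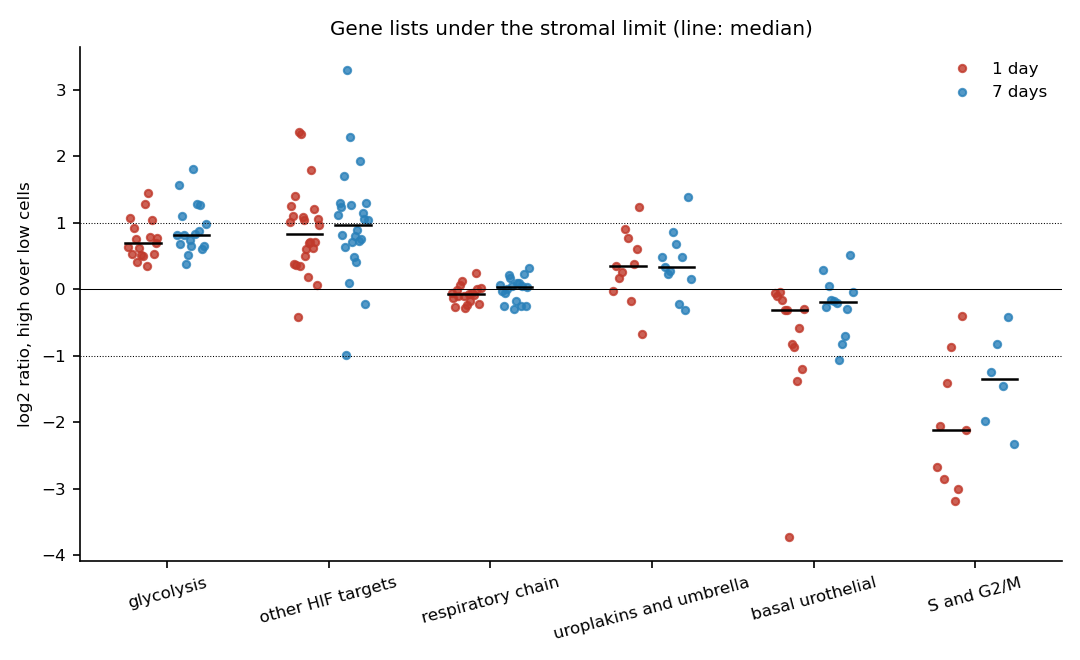
Log2 ratio of high over low cells under the stromal limit (y axis) for the measured genes of 6 lists at 1 day (red) and 7 days (blue), 1 point per gene with the median as a line. Glycolysis genes all lie above 0 with medians of 0.70 and 0.82, respiratory chain genes lie near 0, and S and G2/M genes all lie below 0.

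Fxyd4, itself a rule gene, was the only measured gene of the FXYD and sodium pump list that was higher. Of the 12 genes on that list 6 were measured. Fxyd3, which urothelium expresses widely, was at 1334 and 1336 CPM in high cells, against 998 and 987 in low cells and 1336 in bladder. Fxyd5 was at 22.7 and 18.0 CPM in high cells, against 51.1 and 51.4 in low cells and 155 and 173 in the other cells, and its log2 ratio was -0.40 and -0.73 under the stromal limit. The pump subunit Atp1b1 was at 58.2 and 44.4 CPM in high cells and 40.8 and 39.5 in low cells. Among 5 measured genes for salt and acid transport 0 were higher and 0 lower. Aqp3, a water and glycerol channel, was at 369 and 395 CPM in high cells, against 248 and 292 in low cells and 531 in bladder.

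The other genes with the largest ratios at 1 day came from varied families. Klhl3, the substrate adaptor of a ubiquitin ligase that in kidney controls WNK kinases, was at 55.4 and 59.4 CPM in high cells, against 8.8 and 7.0 in low cells and 1.76 in bladder. Dnase1l2, a nuclease of cornifying epithelia, was at 104 and 87.1 CPM in high cells, against 21.7 and 21.9 in low cells. Mgarp, a mitochondrial protein gene, was at 94.8 and 88.9 CPM in high cells, against 22.5 and 20.3 in low cells and 0.29 in bladder. Each of these high sets lay above both low sets. Fabp4, a fatty acid carrier that urothelium and endothelium use, was at 727 and 737 CPM in high cells, against 175 and 145 in low cells and 150 in bladder. Nccrp1 was at 93.1 and 97.3 CPM in high cells, against 23.5 and 23.7 in low cells. Rnf186, a ubiquitin ligase gene, was at 173 and 163 CPM in high cells, against 48.7 and 40.6 in low cells. For these genes, too, the order held in both libraries, though the low cells of both held stromal RNA. Low cells under the stromal limit had 9.89 and 7.90 CPM of Klhl3, 26.0 and 25.1 of Mgarp, and 196 and 175 of Fabp4. The other genes here are given without that limit. H2-Ab1, a class II antigen-presenting chain, was at 34.1 and 31.2 CPM in high cells, against 7.3 and 7.7 in low cells. Of 5 measured antigen presentation genes it was the only one higher, with H2-D1 at 246 and 250 CPM in high cells and 176 and 202 in low cells. B2m was at 45.5 and 39.2 CPM in high cells and 88.5 and 100.1 in low cells.

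Genes of the upper urothelial layers mostly had ratios above 0, 10 of 11 at each time, though few passed the rule. Of 11 measured uroplakin and umbrella cell genes 3 were higher at 1 day, with a median of 0.70, and under the stromal limit 1 was, with a median of 0.35. At 7 days 2 were higher and 1 lower, with a median of 0.63, and 1 and 0 under the stromal limit, with a median of 0.33. Upk3b, a minor uroplakin, was the gene that passed under both, at 244 and 252 CPM in high cells, against 85.0 and 74.9 in low cells and 229 in bladder. Upk1a was at 1303 and 1218 CPM in high cells, against 613 and 670 in low cells and 2868 in bladder. Psca was at 1334 and 1219 CPM in high cells, against 607 and 591 in low cells. Krt20, the keratin of mature umbrella cells, was at 0 UMIs in high cells of both libraries and at 62.3 CPM in bladder. Sprr1a, a cornified envelope gene, was at 1652 and 1729 CPM in high cells, against 505 and 818 in low cells and 3062 in bladder. When low cells of any Upk3a were used, the 7-day log2 ratio turned to -0.55 for Sprr1a, -0.066 for Psca and -0.30 for the claudin gene Cldn23. Tight junction genes were all above 0, 10 of 10 at each time, with medians of 0.71 and 0.74, and of 0.37 and 0.40 under the stromal limit. Of these, 1 was higher at 1 day and 2 at 7 days, and under the stromal limit 0. Of 13 urothelial transcription factor genes measured at 1 day Pparg and Ovol1 were higher, with Pparg at 124 and 123 CPM in high cells against 60.9 and 62.5 in low cells. Neither passed under the stromal limit, where Pparg had 0.66 and 0.64. Ovol1 was at 25.5 CPM in high cells and 12.4 in low cells at 1 day, and at 18.9 and 25.03 at 7 days.

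Basal genes differed by gene. Krt14, the keratin of the most basal urothelial cells, was at 6.4 CPM in high cells at 1 day against 63.0 in low cells, and at 28.2 against 40.1 at 7 days. The log2 ratio was -3.27 at 1 day (-3.98 to -2.70) and -0.50 at 7 days (-0.95 to -0.09), and -3.73 and -1.06 under the stromal limit. The UMIs behind it were few, 23 in 8 high cells at 1 day and 64 in 3 high cells at 7 days. At 7 days 63 of the 64 lay in the band just inside the limit, from 12 to 20, and the bands above held 1 and 0. At 1 day 17 of the 23 lay in that band. Krt5, a rule gene for urothelium, was at 399 and 459 CPM in high cells, against 562 and 547 in low cells. In low cells under the stromal limit it was at 752 and 752 CPM. Krt15, also a rule gene, was at 2757 and 2716 CPM in high cells, against 3695 and 3521 in low cells. Its level in low cells under the stromal limit was 4964 and 4857 CPM. Of 12 measured basal genes 0 were higher and 2 lower at 1 day, and 0 and 0 at 7 days. Under the stromal limit 3 of 13 were lower at 1 day and 1 of 12 at 7 days, with medians of -0.31 and -0.19. Itgb1, an integrin chain of basal cells that stroma also uses, was at 180 and 165 CPM in high cells and 363 and 326 in low cells, and its log2 ratio was -0.30 and -0.18 under the stromal limit.

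Cell cycle genes were scarce in high cells, and under the stromal limit at 1 day also in the low cells nearest the limit of 12. Of 11 measured genes of S and G2/M phases 9 were lower and 0 higher at 1 day, with a median of -2.45, and 8 and 0 at 7 days, with a median of -2.25. With the stromal limit 7 of 9 were lower at 1 day and 4 of 6 at 7 days, with medians of -2.12 and -1.35. Under that limit the whole list summed to 416 CPM at 1 day in low cells with a rule sum of 0. It summed to 564 in those above 0 to 6 and to 144 in those from 6 to 12. In high cells from 12 to 20 it summed to 156. At 7 days these sums were 401, 357, 197 and 129 CPM. Mki67, the proliferation marker, was at 5.3 and 8.4 CPM in high cells, against 40.6 and 34.0 in low cells. Top2a, the topoisomerase of dividing cells, was at 6.7 and 9.7 CPM in high cells, against 51.3 and 47.1 in low cells. Stmn1, which destabilises microtubules, was at 88.2 and 82.7 CPM in high cells, against 237 and 195 in low cells. In cells thinned to 5000 UMIs, 2.46% of high cells at 1 day and 2.40% at 7 days held 3 or more UMIs of these genes, against 18.1% and 11.8% of low cells. Without thinning the shares were 3.42% and 5.98% in high cells and 17.1% and 20% in low cells. With the stromal limit the thinned low cells gave 12.2% and 7.45%, and other assembloid cells 35.9% and 30.3%. Of 9 measured growth arrest genes 0 were higher at either time. Gadd45g was lower in high cells at each time, with 14.4 and 14.1 CPM against 73.6 and 63.4 in low cells and a log2 ratio of -0.57 and -0.81 under the stromal limit.

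Among the genes with the lowest ratios at 1 day, Krt14 and Stmn1 also passed with the stromal limit at 1 day and 7 days, Nop58 and Smc4 at 7 days alone, and Rsu1, Dtymk and Aars at neither time. Other lists gave few genes past the rule, beside 1.9% higher and 6.48% lower over all measured genes at 1 day. At 7 days these shares were 2.49% and 7.86%. Of 12 measured amino acid stress and unfolded protein genes 0 were higher and 3 lower at each time, Phgdh, Asns and Psat1. Phgdh, the first enzyme of serine synthesis, was at 19.96 and 7.5 CPM in high cells, against 82.8 and 73.5 in low cells and 295 and 229 in the other cells. With the stromal limit 0 of 10 were lower at 1 day and 1 of 11 at 7 days. Among prostaglandin genes Ptges, the terminal synthase for prostaglandin E, was at 402 and 404 CPM in high cells, against 189 and 173 in low cells and 6.4 in bladder, with 0.80 and 0.86 under the stromal limit. Ptgs2, the inducible cyclooxygenase, was at 6.1 and 1.3 CPM in high cells, against 45.4 and 23.2 in low cells and 165 and 127 in the other cells. Under the stromal limit Ptgs2 passed at neither time, with log2 ratios of -1.80 and -2.03. Both ratios were past 2-fold, so another part of the rule, 20 CPM or the interval, was not met. Csf1 and Ccl2 were lower at both times, and Csf1 stood at 12.5 and 8.4 CPM in high cells, against 93.1 and 73.7 in low cells and 353 and 278 in the other cells. The log2 ratio of Csf1 was -0.54 and -0.17 under the stromal limit, where Ccl2 passed at 1 day. Of 12 measured glutathione and NRF2 genes 0 passed at either time, and under the stromal limit Aldh3a1 was lower at both, with 11.6 and 15.4 CPM in all high cells and 20.8 and 23.4 in all low cells. Of 11 cholesterol and fatty acid genes measured at 1 day 0 passed, and under the stromal limit Scd2, a desaturase, was higher at both times, with 522 and 550 CPM in all high cells and 273 and 272 in all low cells. Of the 5 EGF family and the 8 hedgehog, Wnt and BMP genes measured at 1 day 0 passed, and of 15 immediate early genes 0 did. The metallothionein Mt2 was lower at both times, at 6.9 and 4.4 CPM in high cells against 21.7 and 28.4 in low cells and 88.7 and 99.5 in the other cells. Under the stromal limit it passed at neither time, with log2 ratios of -0.57 and -1.42, the 7-day ratio again being past 2-fold. Genes with near-identical copies, such as the Sprr2 genes and Mt1 with Mt2, may share reads.

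Ghrh and Ero1l rose with the rule sum over its whole range, while Pgk1 was level between the 2 highest bands. The bands use the rule's own measure and are a description. In 6 bands of the sum at 1 day, from 0 to 40 and above, Ghrh stood at 1.84, 8.82, 70.4, 156, 355 and 714 CPM. Ero1l stood at 96.9, 108, 230, 502, 711 and 1135 CPM in the same order, and Pgk1 at 471, 599, 887, 1245, 1505 and 1498. The band from 6 to 12, whose cells count as low, thus lay between the others. Krt5 had 624, 542, 561, 508, 365 and 252 CPM at 1 day and 419, 581, 574, 548, 440 and 229 at 7 days, lowest in the highest band at each time. Under the stromal limit Krt5 had 808, 763, 701, 533, 374 and 256 CPM at 1 day. At 7 days it had 774, 800, 653, 564, 443 and 229 CPM under that limit. At 7 days Ghrh was at 3.38 CPM in the lowest and 772 in the highest band, Ero1l at 36.0 and 1083, and Pgk1 at 342 and 1632. Hif1a was at 213 CPM in the lowest band and 126 in the highest at 1 day, and at 187 and 116 at 7 days. Summed respiratory chain genes were at 5505 and 5333 CPM in these bands at 1 day and at 5451 and 5346 at 7 days.

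**Figure D5:**
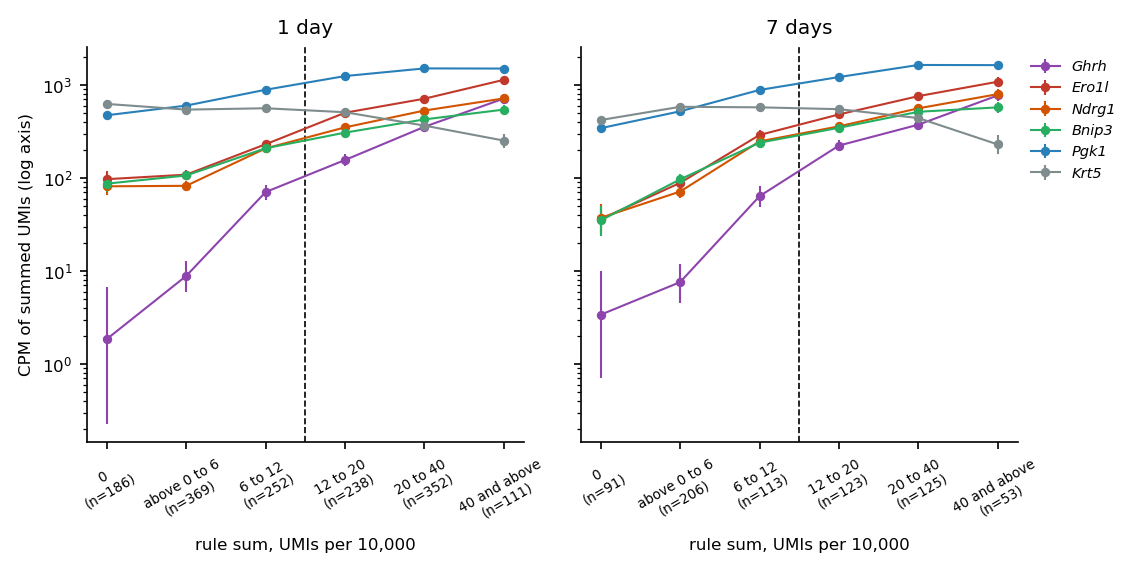
CPM of summed UMIs on a log axis with exact counting intervals for 6 genes (y axis) in bands of the rule sum in UMIs per 10000 (x axis, with the number of cells), at 1 day and 7 days. The dashed line is the limit of 12, and the stromal limit was not applied. Ghrh, Ero1l, Ndrg1 and Bnip3 are higher in each band right of the line than in any band left of it, and Krt5 is lowest in the highest band.

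The high cells were not all carried by the same rule genes. At 1 day 163 reached 12 per 10000 by Fxyd4 and also by Ndufa4l2 with Egln3, 106 by Fxyd4 alone, 284 by Ndufa4l2 with Egln3 alone, and 148 only by the sum. At 7 days these were 73, 33, 112 and 83 cells. Other HIF target genes summed to 7832, 6172, 6906 and 5635 CPM in these 4 subsets at 1 day, against 3311 in low cells, and to 8311, 7588, 7143 and 5774 at 7 days, against 3067. Every subset lay above the low cells. Fabp4 was at 972 and 976 CPM in the subsets with high Fxyd4 at 1 day, and at 622 and 488 in the others. High cells with a UMI of Ghrh had 266 CPM of Krt5 at 1 day and 277 at 7 days, against 516 and 640 in high cells without one. Ero1l was at 933 and 930 CPM in those with a Ghrh UMI, against 492 and 428 in those without. Fabp4 was at 1154 and 1029 CPM with a Ghrh UMI, against 356 and 445 without. Cells with a Ghrh UMI were deeper at 1 day, with a median of 5010 UMIs against 4300.5, and nearly alike at 7 days, with 6793 against 6677. The part of depth in these differences was not tested.

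The genes whose level followed Ndufa4l2 most closely over assembloid urothelial cells thinned to 5000 UMIs were mostly of the same lists. Over 726 cells at 1 day and 5198 genes they were Fxyd4, Gapdh, Lgals3, Ndrg1, Fam162a, Pgk1, Ero1l, Bnip3, Egln3 and Egln1, with Spearman's rho from 0.49 to 0.40. Over 590 cells at 7 days they were Gapdh, Pgk1, Tpi1, Fam162a, Ndrg1, Fxyd4, Bnip3, Mif, Ghrh and Ero1l, with rho from 0.56 to 0.45. These cells share a library and a fixed depth, and the values are descriptions. Within the high cells the link was weak. Ndufa4l2 with Fxyd4 gave rho of -0.02 over 284 high cells at 1 day and 0.00 over 250 at 7 days, against 0.49 and 0.50 over all, and the limit on the sum acts on both genes. With Ghrh, which is not in the rule, rho was 0.16 and 0.22 in high cells and 0.39 and 0.46 over all.

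High cells at 7 days and at 1 day resembled each other in nearly all genes measured. Of 5560 genes 7 were higher at 7 days (0.126%) and 25 lower (0.45%), with a median log2 ratio of 0.01. Of the 24 other HIF target genes, the 17 glycolysis genes and the 18 respiratory chain genes measured 0 were higher and 0 lower, with medians of 0.06, 0.03 and 0.01. Under the stromal limit 4 of 5555 genes were higher in high cells at 7 days and 12 lower. Low cells under the same limit had 9 of 5638 genes higher at 7 days (0.16%) and 15 lower (0.266%). In high cells Ghrh had a log2 ratio of 0.11 (-0.02 to 0.24). Ndufa4l2 had -0.01 (-0.09 to 0.06), but it is a rule gene held to the same limit at both times. Both sets also met the same Upk3a limit, which kept 96.5% of urothelial cells at 1 day and 31.0% at 7 days. The likeness is thus among cells that the rule chose to be alike in these genes. Krt14 was at 28.2 CPM at 7 days and 6.4 at 1 day, a log2 ratio of 2.12 (1.44 to 2.90), but 42 of its 64 UMIs at 7 days came from 1 cell. Without the cell with most UMIs in each library, an alternative chosen after seeing the data, it was at 9.75 and 3.89 CPM, a log2 ratio of 1.31. Sprr2f, a cornified envelope gene, was at 72.6 CPM at 7 days and 19.1 at 1 day, a log2 ratio of 1.92 (1.51 to 2.35), and in low cells at 14.7 and 1.5. Its UMIs came from 5 high cells at 7 days, 95 of 165 from 1 of them, and from 12 at 1 day, and without the cell with most in each library the log2 ratio was 1.12. Rflnb was at 52.8 CPM at 7 days and 31.9 at 1 day, Aldh1a7 at 55.4 and 37.4, and Mplkip at 56.8 and 38.5, each less than 2-fold apart. The lower genes held Acta2 and Tagln of smooth muscle, chosen after their values were seen, at 130 and 66.9 CPM at 7 days and 452 and 207 at 1 day. The smooth muscle markers as a list were at 224 CPM in high cells at 7 days and 801 at 1 day, and at 13832 and 16088 in the other cells. Their part in these differences was not tested.

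Adult bladder urothelium served as the tissue outside culture. At 1 day 677 of 5767 genes were higher in high cells (11.7%) and 433 lower (7.51%), and at 7 days 638 of 5759 (11.1%) and 420 (7.29%). Scaled by the median of ratios, the balance turned round, with 455 higher and 567 lower at 1 day and 440 and 538 at 7 days. The median of all genes was 0.21 at each time, so ratios to bladder are best read against it. Low cells at 1 day under the stromal limit had 643 of 5858 genes higher than bladder (11%) and 455 lower (7.77%). Of the measured glycolysis genes 15 of 16 were higher in high cells than in bladder at 1 day and 16 of 17 at 7 days, with medians of 2.67 and 2.73, and for those low cells 13 of 15 were, with a median of 1.90. Of the other HIF target genes 21 of 24 and 22 of 24 were higher in high cells, with medians of 2.87 and 2.84, and in low cells 17 of 20, with a median of 1.85. Plin2 was the gene lower than bladder in each, at 126 CPM in all low cells at 1 day, 140 in high cells and 541 in bladder. Uroplakin and umbrella cell genes were lower for 6 of 12 in high cells at each time, with medians of -0.96 and -1.03. Upk3a itself was among the 6 at each time. High cells all met the Upk3a limit, while the bladder set held urothelial cells of any Upk3a, of which 4.23% met it. Cells rich in Upk3a were thus left out of the high cells but not of bladder, and nothing is read from this list. Upk3a, which the rule limits, was at 65.1 and 73.9 CPM in high cells and 5011 in bladder. Akr1b3, an aldose reductase, was at 926 and 980 CPM in high cells and 2505 in bladder. These comparisons share 1 bladder library, and culture, library and cell state cannot be told apart in them.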

How the data were processed

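Enzymatic dissociation gave the single cells, and libraries were made with the 3′ version 3 kit of 10x Genomics, per the labels' protocols. The deposited matrices hold raw UMI counts per gene and barcode, as the authors left them, without normalization. Reads had been assigned with Cell Ranger, version 3.1.0 per the file headers, and mm10, GRCh38 and hg38 are the builds given by the submitters' processing notes. How cells were called, and the gene annotation, is not stated there. Feature and barcode files hold other, non-numeric names as deposited.

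Barcodes with at least 90% of UMIs on mouse genes, 500 or more mouse genes and under 20% mitochondrial UMIs were kept, 7013 in bladder, 8538 at 1 day and 8374 at 7 days. Scrublet (scanpy 1.11.5) ran per library and its calls, 3.22%, 3.27% and 2.40% of kept cells, were left in and removed as an alternative. UMIs were summed per cell set and library and scaled to CPM of all mouse UMIs of the set, so a gene's value is a share and not an absolute amount. Log2 ratios had 0.5 counts added, with exact conditional Poisson intervals, and shares had Clopper-Pearson intervals. The comparison step was tested on simulated Poisson counts, the form that the intervals assume. That check does not cover UMIs bunched in few cells, as those of Krt14 and Sprr2f were. Where a symbol had more than 1 gene ID, the ID with most UMIs was used. With 1 library per group no test was possible.

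Genes were named by a rule: the 12 highest and 8 lowest ratios at 1 day among genes of 50 CPM or more, the 4 largest between 7 days and 1 day, up to 4 per list, the genes most like Ndufa4l2, and the markers, rule genes, paralogs and HIF pathway. Mitochondrial, ribosomal, haemoglobin and sex-linked genes, predicted genes, and 173 genes over 5-fold higher in other cells were not eligible for the highest and lowest. Further genes in a list were named after their values were seen, among them Bnip3, Vegfa, Slc16a3, Krt20 and Plin2. A gene that the rule gave is not reported here. The members and lists were chosen with earlier results of these data known. Positions came from GENCODE vM21 for 125 of 125 genes, and promoters from RefSeq on GRCm38.p6, without the 50 bases after the start site. Scripts ran on scipy 1.17.1, numpy 2.4.6 and pandas 2.3.3 under Python 3.11.15, with figures from matplotlib 3.10.9.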

Additional observations from a re-analysis of the deposited data

How the results depend on the processing

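No paired analysis was possible because each group had 1 library. The share of high cells moved with the rule's limit, to 55.4% at 1 day and 52.3% at 7 days with a limit of 8 per 10000 and to 30.7% and 25.04% with 20. Against all urothelial cells the 7-day share was 13.1%, without doublet calls the 1-day share was 49.2%, and under the stromal limit it was 49.5%. Genes higher at 1 day numbered 181 when low cells were limited to sums below 6, 41 at 100 CPM, 293 with no minimum CPM and 73 under the stromal limit. Genes higher at 7 days numbered 407 when low cells of any Upk3a were used, 53 at 100 CPM, 333 with no minimum and 90 under the stromal limit. Genes lower at 1 day numbered 116 without doublet calls, 166 with means of per-cell CPM, 1542 with no minimum, 81 at 100 CPM and 50 under the stromal limit. Genes lower at 7 days numbered 311 without doublet calls, 236 with means of per-cell CPM, 277 thinned to 5000 UMIs, 1512 with no minimum, 96 at 100 CPM and 58 under the stromal limit. The small counts between 7 days and 1 day moved more. Genes higher at 7 days than at 1 day were 15 with a limit of 20, 21 after thinning, 130 with no minimum, 0 at 100 CPM and 4 under the stromal limit, and genes lower were 10 with a limit of 8, 14 with per-cell means, 47 after thinning, 155 with no minimum, 6 at 100 CPM, 16 with 5 counts added and 12 under the stromal limit. Against bladder, no minimum gave 2241 higher and 1162 lower at 1 day and 1871 and 951 at 7 days, and 100 CPM gave 161 and 135 at 1 day and 148 and 125 at 7 days. Thinned to 3000 UMIs, the share of high cells with a UMI at 1 day was 34.4% for Ghrh, 67.5% for Bnip3, 63.5% for Ndrg1 and 6.08% for Car9, and at 7 days 68.0% for Bnip3 and 66.9% for Ndrg1, as fewer UMIs are drawn. Within high cells 0 of the 10 genes most like Ndufa4l2 at 1 day and 3 at 7 days were shared with those over all cells. A count with no minimum CPM covers more genes and one at 100 CPM fewer, and the cause of the other moves was not tested.

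At 7 days 3 genes that were higher changed sign when low cells of any Upk3a were used, Cldn23 at -0.30, Psca at -0.066 and Sprr1a at -0.55, and Klf2, which was lower, had 0.24 under the stromal limit. Of 99 calls of named genes over both libraries, 57 held under the stromal limit, 70 without doublet calls, 69 with per-cell means and 77 after thinning. Limiting low cells to sums below 6 does not apply to shares or to the 2 comparisons without low cells. Scaling by the median of ratios kept 98 of the 99 calls, but against bladder it gave 455 higher and 567 lower genes at 1 day and 440 and 538 at 7 days.

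Genes near 20 CPM rest on the fewest UMIs, above all in the 301 high cells at 7 days, and 1 library per group leaves variation between assembloids unmeasured.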
